A study of Mus musculus with 96 samples.

Results

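The genes described here form a set that drives and carries out cell division: cyclins and kinases of the cell cycle, the proteins that license and copy DNA, and those that build the spindle and separate the chromosomes. The set held 44 listed genes. A member counted as measured when a probe set annotated to that gene alone lay above an intensity of 20, the lowest value in the data, on at least 1 of the 96 arrays. Where several probe sets qualified, the one with the highest mean stood for the gene. This gave 39 measured members among 10543 items tested, of which 7741 were named genes and 2802 were probe sets with no single gene symbol. Cdc25c, Kif11, Kif23 and Chek1 lay at the floor of 20 on every array, and Ccnb1 was not analysed here.

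The arrays measured total RNA of mouse bone marrow dendritic cells, which are antigen-presenting cells grown from bone marrow. Cells received 1 of 5 Toll-like receptor stimuli, labelled Lps, Pic, Pam, Cpg and Grd, or were left unstimulated. From general knowledge of this experimental system, these names stand for lipopolysaccharide, which acts on TLR4, poly(I:C) on TLR3, a bacterial-type lipopeptide on TLR2, CpG DNA on TLR9 and gardiquimod on TLR7. Each stimulus was sampled with 2 arrays at each of 9 times (0.5, 1 and 2 h, then 4, 6 and 8 h, then 12, 16 and 24 h), except for Cpg, which had 1 array each at 16 and 24 h. Unstimulated cells had 1 array each at 0, 1, 2, 4, 6, 8, 12 and 24 h. The strain, the age of the animals and the dose of each stimulus are not given in the sources used here.

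Dividing cells pass through a fixed order of events, and the genes fall into roles along it. Cyclin E with Cdk2 carries cells from G1 into S phase. The MCM proteins are loaded on origins as a ring and later unwind the DNA, and ribonucleotide reductase and thymidylate synthase supply the nucleotides. Cyclin A and cyclin B with Cdk1, the aurora kinases, the kinetochore and the anaphase-promoting complex then take the cell through mitosis. Precursors of dendritic cells divide in culture, and maturation of these cells by microbial products is known to go with an exit from the cycle. Many of these genes share promoter elements: E2F sites in genes of the G1/S step, and paired CCAAT boxes with a CHR element (cell cycle genes homology region) in genes of G2 and mitosis.

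The promoters of 6 members are printed to show the letters upstream of falling and rising genes, 3 from genes that fell (Mcm6, Ube2c, Cenpa) and 3 from genes that rose (Mki67, Mad2l1, Tyms). Each is the last 150 bases before the start site, 5′ to 3′ on the strand of the gene, from RefSeq on GRCm38.p6. Capitals mark matches to 3 motifs searched on both strands: CHR as TTTGAA or TTCGAA, the CCAAT box as CCAAT, and E2F as TTTGGCGC, TTTCGCGC, TTTGCCGC or TTTCCCGC. The positions are chr1:128359706-128359855 (minus strand) for Mcm6, chr2:164769779-164769928 (plus) for Ube2c and chr5:30666736-30666885 (plus) for Cenpa. The rising genes lie at chr7:135716380-135716529 (minus) for Mki67, chr6:66535071-66535220 (plus) for Mad2l1 and chr5:30073626-30073775 (minus) for Tyms.
Mcm6: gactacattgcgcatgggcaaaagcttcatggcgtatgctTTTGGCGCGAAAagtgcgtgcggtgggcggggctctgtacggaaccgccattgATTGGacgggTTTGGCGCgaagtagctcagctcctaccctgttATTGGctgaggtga
Ube2c: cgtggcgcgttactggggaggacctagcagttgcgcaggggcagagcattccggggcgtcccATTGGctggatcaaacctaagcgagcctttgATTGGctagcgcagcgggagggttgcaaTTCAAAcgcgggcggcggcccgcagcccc
Cenpa: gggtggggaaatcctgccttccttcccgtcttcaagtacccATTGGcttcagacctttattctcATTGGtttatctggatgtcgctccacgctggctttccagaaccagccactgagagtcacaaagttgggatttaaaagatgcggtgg
Mki67: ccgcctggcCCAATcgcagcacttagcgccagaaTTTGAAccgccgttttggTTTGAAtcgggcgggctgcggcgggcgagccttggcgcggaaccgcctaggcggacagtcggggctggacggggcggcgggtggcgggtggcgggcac
Mad2l1: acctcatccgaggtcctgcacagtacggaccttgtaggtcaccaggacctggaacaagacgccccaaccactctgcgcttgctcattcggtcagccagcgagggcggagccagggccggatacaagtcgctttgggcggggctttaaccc
Tyms: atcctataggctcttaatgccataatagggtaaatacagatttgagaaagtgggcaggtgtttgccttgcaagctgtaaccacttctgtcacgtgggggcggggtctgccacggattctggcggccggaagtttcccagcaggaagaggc
The Mcm6 stretch held E2F and CCAAT matches, with a pair of overlapping E2F matches in its first capital run. Ube2c held CCAAT boxes followed by a CHR match, and Cenpa held CCAAT boxes, with a CHR match lying just downstream of the printed stretch. Mki67 held a CCAAT box and a pair of CHR matches, while the stretches of Mad2l1 and Tyms held none of these letters. Promoter windows of 300 bases (250 before and 50 from the start site on) were listed for 33 of the 39 measured members, and not for the other 6. A CHR match lay in 16 of the 33 members (48.5%), against 19.2% of all 32851 listed windows. CCAAT lay in 24 members (72.7%), against 37.4% of windows, and E2F in 8 members (24.2%), against 2.26%. Among the 11 members with a window that fell in any comparison below, 5 had CHR, 9 CCAAT and 4 E2F, and among the 3 that rose the counts were 1, 1 and 0. A match is a description of letters, not evidence that a factor binds, and members with more than 1 window were counted once.

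Between 4 and 24 h of stimulation, 13 of the 39 members fell with at least 1 stimulus, and Tyms, Mad2l1 and Mki67 rose. Of all items tested, 12.7% fell and 11.1% rose in at least 1 of the 15 comparisons of a stimulus and a time window described below. The falling members belonged to licensing (Mcm4, Mcm5, Mcm6, Mcm7, Cdt1), nucleotide supply (Rrm1, Rrm2), mitotic entry (Ccna2), the spindle checkpoint and anaphase (Bub1b, Ube2c), the centromere and spindle (Cenpa, Nusap1) and chromosome structure (Top2a). Cenpa, the histone H3 variant that marks centromeres, was the only member that fell with all 5 stimuli in both the middle and the late window. A further 23 members passed in no comparison, and no member both fell and rose. In bulk samples, fewer cells of a type and less RNA per cell cannot be told apart.

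**Figure D1:**
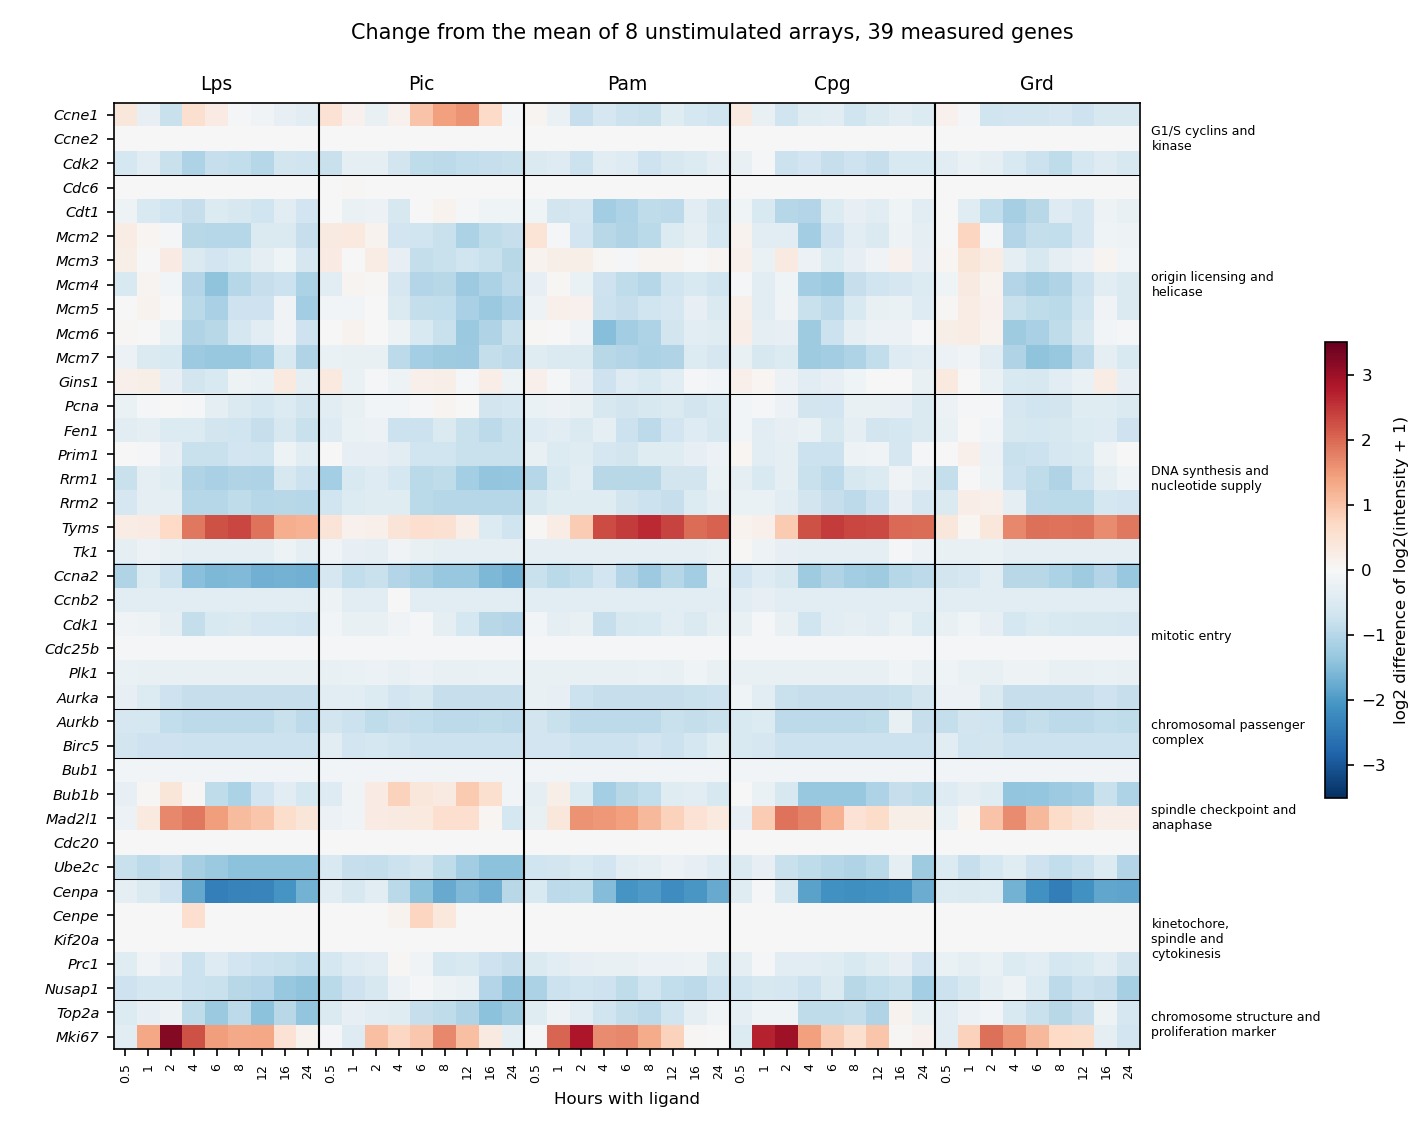
Log2 difference of each measured member (rows, ordered by role) from the mean of the 8 unstimulated arrays, at each stimulus and time in hours (columns). Blue marks lower and red higher values; the blue field from 4 h on covers most members, and the rows of Tyms, Mad2l1 and Mki67 stand out in red.

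Comparisons used 3 windows per stimulus: early (0.5, 1 and 2 h), middle (4, 6 and 8 h) and late (12, 16 and 24 h), each against all 8 unstimulated arrays. The log2 differences below are on the log2(intensity + 1) scale, with their standard errors, from 1 limma fit over the 96 arrays. A gene was said to fall or rise when its Benjamini-Hochberg adjusted p over all 10543 items was under 0.05 and its difference was at least 1 log2 unit. The labels do not say whether arrays came from separate cultures, so the p-values reflect spread among these arrays alone, which could be technical. Because values stop at 20, only the 23 members whose unstimulated mean lay at least 1 log2 unit above that floor could be called lower, and the other 16 could not. Of the 39, 18 were above the floor on all 96 arrays, and 8 (Ccne2, Cdc6, Ccnb2, Cdc25b, Bub1, Cdc20, Cenpe and Kif20a) on 10 arrays or fewer.

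In the early window no member fell with any stimulus, where 0.55% of all items fell with Lps, 0.247% with Pic, 0.74% with Pam, 0.294% with Cpg and 0.171% with Grd. At an adjusted p under 0.05 in limma with no minimum size, 22, 23, 24, 23 and 19 members were lower in that order, against 33.6, 27.2, 35.4, 32.2 and 22.5% of all items. At an unadjusted p under 0.05 the counts were 23, 23, 24, 25 and 21 members, against 36.2, 30.6, 37.8, 35.7 and 26.8%. Mki67 alone rose early, with Lps, Pam and Cpg, where 1.57, 1.65 and 1.85% of items rose; no member rose early with Pic (0.617% of items) or Grd (0.948%). A comparison of the 1 and 2 h arrays with the unstimulated arrays of those times left out the 0.5 h arrays. There Mki67 was also called higher with Grd (1.79), and Mad2l1 with Lps (1.145), Pam (1.11) and Cpg (1.52). Each of these reference times had 1 array, so the spread of the reference was not measured. The part of the missing 0.5 h arrays in these calls was not tested.

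In the middle window 7 members fell with Lps (8.22% of items did), 3 with Pic (2.79%), 5 with Pam (4%), 5 with Cpg (5.53%) and 6 with Grd (3.92%). In the late window 5 fell with Lps (4.42%), 10 with Pic (4%), 1 with Pam (2.97%), 2 with Cpg (3.23%) and 3 with Grd (2.88%). Pic thus had its larger count late, whereas the other stimuli had theirs in the middle window. The median difference over the 39 members in the middle window was -0.62 with Lps, -0.25 with Pic, -0.58 with Pam, -0.52 with Cpg and -0.63 with Grd, and over all items it lay between -0.11 and -0.03. Late medians were -0.58, -0.75, -0.40, -0.33 and -0.38 in the same order, with all items between -0.03 and -0.01.

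The number of members that rose was 3 each with Lps, Pam and Grd, 2 with Cpg and 1 with Pic in the middle window, where 7.05, 3.48, 4.53, 5.4 and 4.93% of items rose. Late, 1 member rose with each of Lps, Pam, Cpg and Grd and none with Pic, against 4.7, 3.42, 3.86, 3.84 and 4.53% of items. With the size requirement dropped, 30, 26, 30, 31 and 31 members were lower in the middle window at an adjusted p under 0.05 in limma (Lps, Pic, Pam, Cpg, Grd), against 47.8, 46.3, 37.7, 44.8 and 40.7% of items. Late, 30, 29, 28, 26 and 29 were lower, against 35.3, 38.5, 31.7, 31.4 and 32.4%.

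Of the 66 calls over members and windows, 47 were lower and 19 higher. In 45 of the 47 lower calls every array of the window lay below all 8 unstimulated arrays, and in 14 of the 19 higher calls every array lay above them. The same share was not counted over the calls of all items, so nothing particular to the members is drawn from these counts. The direction was kept for all 66 under every alternative tried, and the call itself for 57 when any single array was left out and for 29 under all alternatives. Those 29 were all 10 calls of Cenpa, 5 of Tyms, 4 of Mki67, 3 of Ccna2, 2 each of Mcm7 and Mad2l1, and 1 each of Mcm6, Rrm1 and Ube2c. Adding 16 in place of 1 before the logarithm cut the Lps middle count from 7 to 3, and centring each array on its median gave 4. All stimulated arrays except those of Cpg lay in plate columns 1 to 9 and the unstimulated arrays in columns 10 to 12, so plate position and stimulus cannot be told apart for Lps, Pic, Pam and Grd.

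Unstimulated cells were not flat over time, and this bears on the MCM genes in particular. Mcm6, a subunit of the replicative helicase, went from 328.5 at 0 h through 286.8, 271.1, 251.8, 225.8, 215.4 and 197 to 146.4 at 24 h. Each later array in that series was lower than the one before. A limma slope on log2(hours + 1) over the 8 arrays was -0.23 ± 0.02 per unit for Mcm6 (adjusted p = 0.029), -0.25 ± 0.03 for Mcm4 (0.036), -0.25 ± 0.04 for Mcm5 (0.036) and -0.19 ± 0.03 for Mcm3 (0.038). Ube2c, the ubiquitin-conjugating enzyme of the anaphase-promoting complex, had the opposite slope, 0.32 ± 0.07 (adjusted p = 0.041), as did Ccnb2, a mitotic cyclin, with 0.21 ± 0.05 (0.042). Of all items, 7.06% had a falling and 5.25% a rising slope. These 6 slopes rest on single arrays: the count was 0 without the 1 h or the 12 h array, 1 without the 4, 8 or 24 h array, 3 without the 0 or 2 h array and 6 without the 6 h array.

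Among the G1/S genes, Cdk2, the kinase that cyclin E activates, had the highest unstimulated level, with a lowest value of 129.1, a median of 151.55 and a highest of 180.8. Its differences ran from -0.91 (Lps middle) to -0.32 (Grd early), and none reached 1 log2 unit. Ccne1, cyclin E1, split by stimulus. Its unstimulated arrays had a lowest value of 22.5, a median of 36.8 and a highest of 46.2, and with Pic in the middle window 34.2, 72.65 and 101.3. At 12 h the Pic arrays read 104.5 and 111.6, the highest of any group. The Pic difference was 0.86 ± 0.10 in the middle window (limma, adjusted p = 2.8e-11) and 0.74 late, short of the size required, and with Pam it was -0.70 in the middle window. Ccne2, cyclin E2, was above the floor on 1 array only. Neither Ccne1 nor Ccne2 could have been called lower.

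Origin licensing and the helicase held the largest group of falling members, 5 of 9, where 12.7% of all items fell in at least 1 window. It was also the role with the most members that could be called lower, 7, followed by DNA synthesis and nucleotide supply with 5. Nothing particular to the role is drawn from its count. Cdt1, which loads the MCM ring, had the highest unstimulated level of the role (lowest 302.5, median 336.1, highest 416.9). With Pam in the middle window its 6 arrays had a lowest value of 133.7, a median of 160.2 and a highest of 186.8, all below the unstimulated arrays. That fall was -1.06 ± 0.05, and it was the only window in which Cdt1 passed. A second probe set for Cdt1 gave -0.96 with Pam in the middle window.

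Mcm7 was the helicase subunit that fell most widely, with all 5 stimuli in the middle window. Its unstimulated arrays ran from 104.6 through a median of 117.25 to 143.2. In the middle window the Lps arrays had a lowest value of 37.2, a median of 48.85 and a highest of 58.5, and the Grd arrays 42, 47.8 and 63.1. No stimulated array of these windows reached the unstimulated range. The differences were -1.31 ± 0.09 with Lps, -1.12 with Pic, -1.03 with Pam, -1.18 with Cpg and -1.27 with Grd. A second Mcm7 probe set gave -1.81 with Lps in the middle window and -1.40 with Pic late. The Pam value slipped to -0.98 without the second Pam 4 h array and to -0.99 without the unstimulated 0 h array.

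Mcm6 fell with Pam and Grd in the middle window and with Pic late. With Pam it read 83.8 and 83.1 at 4 h, 92.8 and 107.9 at 6 h, and 106.1 and 114.5 at 8 h. All 6 lay below the lowest unstimulated array, 146.4. The Pam difference was -1.26 ± 0.09 and the Grd difference -1.09. At 24 h Mcm6 read 230.9 and 226.1 with Grd, within the unstimulated range of 146.4 to 328.5, whose own 24 h array was the lowest. From the middle to the late window the difference was 0.86 ± 0.09 with Grd and 0.78 with Pam, against -0.54 with Pic, none of which reached 1 log2 unit.

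Mcm4 fell with Lps (-1.15 ± 0.11), Cpg (-1.10) and Grd (-1.07) in the middle window. Its unstimulated arrays ran from 86.9 through 146.65 to 207.3, and the Lps middle arrays from 53.7 through 68.45 to 80.4. With Cpg, 5 of the 6 middle arrays lay below all unstimulated arrays. Mcm5 fell with Pic late alone (-1.20 ± 0.12), with 25.5, 29.5 and 32.7 as lowest, median and highest against 41.8, 71.7 and 96.3 unstimulated. Mcm2, another helicase subunit, had -0.99 with both Lps and Pam in the middle window, just short of the size required. The other Mcm2 probe set gave -0.89 with Lps and -1.02 with Pam in that window. Mcm3 passed in no window, with -0.81 at its lowest (Pic late) and 0.02 with Pam in the middle window, although its other probe set gave -0.90 with Lps middle and -1.11 with Pic late. Gins1, a partner of the helicase, lay between -0.57 and 0.07, and Cdc6, the loading factor, was above the floor on 1 array. Neither could have been called lower.

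The late Pic values of the MCM genes depend on the reference. Against the mean of the 8 unstimulated arrays Mcm4 was -1.10, Mcm5 -1.20, Mcm6 -1.04 and Mcm7 -1.003. No unstimulated array was taken at 16 h. With only the Pic and unstimulated arrays of 12 and 24 h, Mcm4, Mcm5 and Mcm6 were -0.63, -0.67 and -0.57. Against a linear trend through the unstimulated arrays, with all late Pic arrays, they were -0.66, -0.77 and -0.63, with -0.89 for Mcm7. Each of the 4 calls was lost against at least 1 of these references. Mcm6 also lost the late Pic call without the first Pic 24 h array (-0.99), the unstimulated 0 h array (-0.97) or the 1 h array (-0.99). Mcm7 with Pic late lost it without any of 3 Pic arrays or the unstimulated 0, 1, 4 or 12 h array, with values between -0.999 and -0.95.

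The middle calls of the MCM group lie close to the size required. Centring each array on its median ended those of Mcm4 with Lps (-0.95), Cpg (-0.95) and Grd (-0.97), of Mcm7 with Pic (-0.998) and Pam (-0.92), of Mcm6 with Grd (-0.99) and of Cdt1 with Pam (-0.95), and kept those of Mcm7 with Lps, Cpg and Grd and of Mcm6 with Pam.

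**Figure D2:**
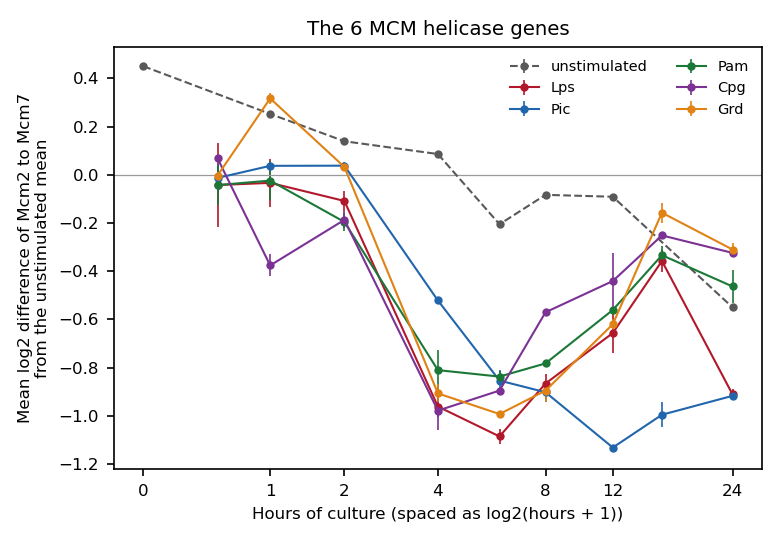
Mean log2 difference of Mcm2 to Mcm7 from the unstimulated mean (vertical axis) against hours of stimulation (horizontal axis), per stimulus; points are group means and vertical bars span the 2 arrays of a group. Unstimulated cells drift from 0.45 at 0 h to -0.55 at 24 h; Lps, Pam, Cpg and Grd are lowest at 4 or 6 h and Pic at 12 h.

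Averaged over the 6 subunits, the lowest point came at 6 h with Lps (-1.09), Pam (-0.84) and Grd (-0.99), at 4 h with Cpg (-0.98) and at 12 h with Pic (-1.13). By 16 h the mean stood at -0.36 with Lps, -0.33 with Pam, -0.25 with Cpg (1 array) and -0.16 with Grd. With Pic it was still -0.996 at 16 h and -0.92 at 24 h. With Lps it was again low at 24 h (-0.91), and with Grd it was -0.31. At 24 h the unstimulated array itself stood at -0.55, and the arrays of Grd, Cpg (-0.32) and Pam (-0.46) lay above it.

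Among genes of DNA synthesis and nucleotide supply, Pcna, the sliding clamp of DNA polymerases, had the highest unstimulated level of the role, from 2888.9 through a median of 3689.6 to 4378.3. It shifted between -0.64 (Grd middle) and -0.01 (Pic middle), and passed in no window. Fen1, which trims Okazaki fragments, reached -0.82 with Pic late, without a call. Prim1, a primase subunit, was at -0.78 with Pic late, where its means at 12, 16 and 24 h were at the floor of 20. Prim1 could not have been called lower. Tk1, thymidine kinase, lay between -0.32 and -0.15 and could not have been called lower either.

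Rrm1, the large subunit of ribonucleotide reductase, fell with Lps in the middle window and with Pic late. Unstimulated arrays ran from 94.5 through 120 to 168, the Lps middle arrays from 46.6 through 57.3 to 60.7 and the Pic late arrays from 42.8 through 45.55 to 58. Neither stimulated window overlapped the unstimulated arrays. The differences were -1.08 ± 0.11 and -1.31 ± 0.11, and a second probe set gave -1.01 and -1.23. Centring on the array median ended the Lps call (-0.88) and kept that of Pic. At 0.5 h the mean of Rrm1 was 71 with Lps, 51.65 with Pic, 60 with Pam and 66.5 with Grd, each lower than at 1 and 2 h. Those 0.5 h arrays lay in plate column 1. With Cpg, whose 0.5 h arrays lay in column 10, the mean was 94.45 at 0.5 h, 82.05 at 1 h and 96.8 at 2 h. Whether plate position had a part in this was not tested. Rrm2, the small subunit, was at the floor on all 6 late Pic arrays, at least 2.05-fold below its unstimulated mean. That call (-1.001 ± 0.09) was lost against the unstimulated arrays of the same times (-0.58) and against their trend (-0.84). It was also lost without the unstimulated 0, 1, 4, 6 or 8 h array (-0.99 to -0.95). The other Rrm2 probe set (unstimulated mean 43.5) gave -1.03 with Lps in both the middle and the late window. In the same order it gave -1.02 and -1.03 with Pic, and -1.03 and -0.85 with Cpg. With Pam it gave -0.96 and -0.89, and with Grd -0.94 and -0.99.

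Tyms, thymidylate synthase, went the other way and had the largest rise of any member over a window. At single times Mki67 went further, to 9.02-fold its unstimulated mean with Lps at 2 h, against 5.92-fold for Tyms with Pam at 8 h. Unstimulated arrays ran from 37.8 through 73.6 to 85.3. With Pam in the middle window they ran from 308.5 through 362.95 to 418.5, and with Pic from 89.9 to 106.8 over the 6 arrays. All arrays of both windows lay above every unstimulated array, those with Pic only just. The middle differences were 2.44 ± 0.12 with Pam, 2.33 with Cpg, 2.14 with Lps and 1.84 with Grd, and 0.52 with Pic, short of the size required. Late they were 2.13 with Pam, 2.09 with Cpg, 1.81 with Grd and 1.47 with Lps, and -0.32 with Pic. Another Tyms probe set read 20 without stimulation. In the middle window it gave 0.31 with Pam, 0.25 with Cpg, 0.15 with Lps, 0.0034 with Grd and 0 with Pic, and averaging the Tyms probe sets ended the calls for Lps late (0.73), Grd middle (0.92) and Grd late (0.91).

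**Figure D3:**
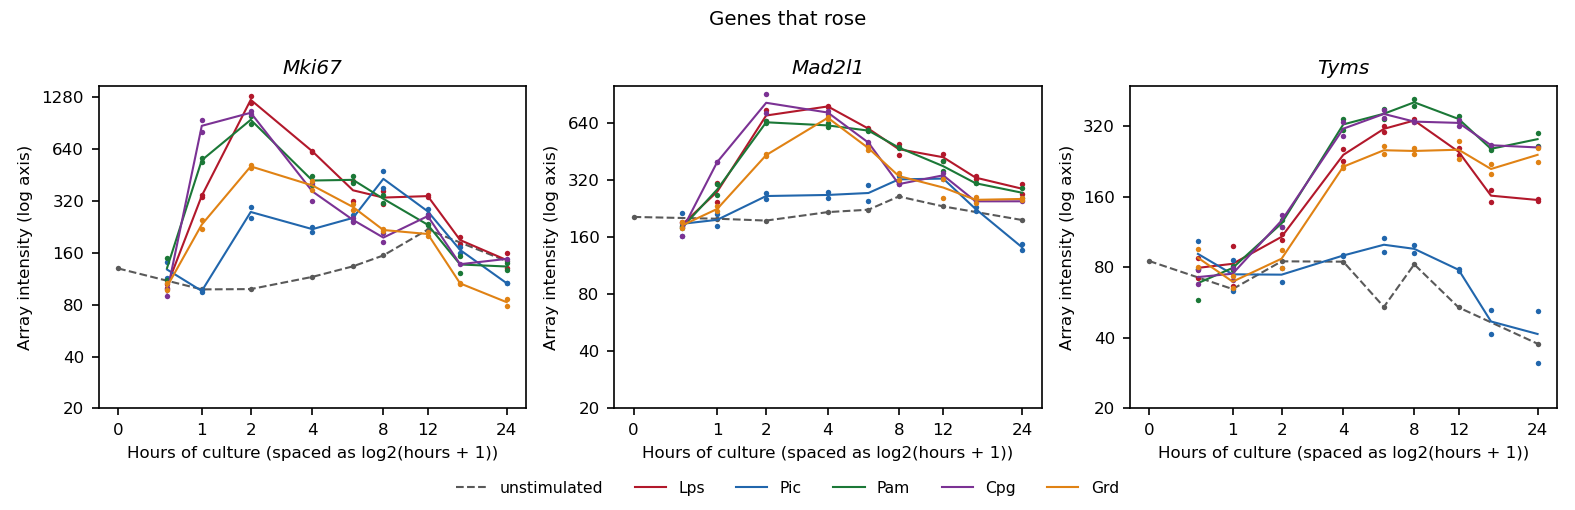
Intensity (vertical, log axis) of Tyms, Mad2l1 and Mki67 against hours (horizontal), with 1 point per array and a line through the mean of each stimulus. With Lps, Pam, Cpg and Grd, Mki67 peaks at 2 h, Mad2l1 at 2 or 4 h and Tyms between 6 and 12 h, while Tyms with Pic stays near the unstimulated arrays.

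Of the genes for mitotic entry, Cdk1, the kinase that starts mitosis, had the highest unstimulated level, from 99.3 through 116.55 to 149.8. It shifted between -0.87 (Pic late) and -0.17 (Pic middle) and passed nowhere. Ccna2, cyclin A2, which acts with Cdk2 and Cdk1, fell in 8 of the 10 middle and late windows. From 41.9, 67.75 and 104.6 in unstimulated cells (lowest, median, highest) it reached 20, 20 and 20.7 with Lps late and 20, 21.7 and 26 with Pic late. In each of the 8 windows all arrays lay below all unstimulated arrays. The Lps differences were -1.52 ± 0.12 and -1.68 ± 0.12 (middle and late), those of Pic -1.16 and -1.53, of Cpg -1.18 and -1.05, and of Grd -1.02 and -1.20. With Pam they were -0.99 and -0.85, outside the call. A dimmer Ccna2 probe set could not reach 1 log2 unit and gave -0.92 with Lps. The Grd middle call was lost without the unstimulated 8, 12 or 24 h array or 3 single Grd arrays (-0.9995 to -0.93), and the Cpg late call without the unstimulated 8 h (-0.96) or 12 h array (-0.98).

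The remaining members for mitotic entry were near the floor. Aurka, aurora kinase A, had an unstimulated median of 36 and reached -0.82 in several windows, which is about as low as the floor allows. Plk1, polo-like kinase 1, lay between -0.27 and -0.21 in every window, Ccnb2 between -0.37 and -0.25, and Cdc25b, a Cdk-activating phosphatase, at -0.08. The chromosomal passenger genes, which correct faulty spindle attachments, were below the unstimulated mean from the early window on. Aurkb, aurora kinase B, ran from -0.92 to -0.64 and Birc5, survivin, from -0.75 to -0.55 over all 15 windows. Neither could have been called lower.

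Spindle checkpoint and anaphase genes showed both directions. Mad2l1, which holds back anaphase until all chromosomes are attached, had the highest unstimulated level of the role, from 195.2 through 210.15 to 261.5. With Lps it read 652.8 and 742.7 at 2 h and 771.7 and 786.1 at 4 h, and with Cpg 907.5 and 720.5 at 2 h. All 6 middle arrays with Lps, Pam, Cpg and Grd lay above every unstimulated array. The middle differences were 1.47 ± 0.06 with Lps, 1.36 with Pam, 1.154 with Cpg and 1.14 with Grd. Without the 4 h arrays the Cpg (0.86) and Grd (0.88) values fell short of the size required. With Pic the difference was 0.41, the highest Pic arrays being 336.8 at 8 h and 327.2 at 12 h.

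Bub1b, a kinase-like partner of Mad2l1 in the same checkpoint, fell with Pam, Cpg and Grd. Unstimulated arrays ran from 34.9 through 52.15 to 79.2. With Grd in the middle window they ran from 20 through 20 to 23.2 and with Cpg from 20 through 20.65 to 21.5. Neither overlapped the unstimulated arrays. The differences were -1.33 ± 0.11 with Grd, -1.32 with Cpg and -1.0001 with Pam in the middle window, and -1.02 with Grd late. With Pic Bub1b was instead at 0.49 and 0.46, not called, with 102.9 and 100.1 at 12 h above all unstimulated arrays. The Pam call was lost without any of 3 Pam arrays or the unstimulated 2, 8 or 12 h array (-0.997 to -0.89). The late Grd call was lost without either of 2 Grd arrays or the unstimulated 8 or 12 h array (-0.99 to -0.94).

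Ube2c fell with Lps and Pic. Its unstimulated arrays rose from 38.1 at 0 h to 102.6 at 24 h, with a median of 52.1. With Lps all 6 late arrays were at 20, and the middle arrays ran from 20 through 21.95 to 26.6. All lay below the lowest unstimulated array, 33.6. The late Lps arrays were at least 2.76-fold below the unstimulated mean, and the middle difference was -1.29 ± 0.14. With Pic late the difference was -1.36 ± 0.14, and with Pam late -0.31, where the 6 arrays ran from 36.5 to 49.2. At 12 and 24 h the unstimulated arrays read 80.6 and 102.6, and the means of Pam were 47.55 and 40.7, of Cpg 28.05 and 23 and of Grd 32.4 and 26.6. Against the unstimulated arrays of the same times the late differences were -2.13 with Lps, -2.03 with Pic, -1.04 with Pam, -1.80 with Cpg and -1.60 with Grd. All were past the size required. Each of those reference times had 1 array, so the spread of the reference was not measured. Bub1, a checkpoint kinase, and Cdc20, which activates the anaphase-promoting complex, were at or near the floor in all groups and could not be called lower.

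In the kinetochore, spindle and cytokinesis role, Cenpa had both the highest unstimulated level and the largest fall. Unstimulated arrays ran from 85.6 through 110.3 to 132.7. With Lps it read 36.3 and 26.9 at 4 h, 20.8 and 20 at 6 h and 20.2 and 22.4 at 8 h. With Pic it read 65.2 and 49.8 at 4 h and 36.7 and 28 at 8 h. Every array of the middle and late windows, with all 5 stimuli, was below every unstimulated array. The Lps difference was -2.17 ± 0.11 in the middle window (limma, adjusted p = 2.4e-25) and -2.005 late. Grd gave -2.06 and -1.93, Cpg -2.05 and -1.98, Pam -1.85 and -1.99, and Pic -1.38 and -1.40.

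Nusap1, which bundles spindle microtubules, fell with Lps late (-1.26 ± 0.12), from 42.2, 66.45 and 99 unstimulated to 21.9, 26.8 and 34.5. It was between -0.93 and -0.85 late with the other stimuli and -0.15 with Pic in the middle window. Prc1, a midzone bundling protein, reached -0.79 with Lps late. Cenpe, a kinetochore motor, was at 20 on the 8 unstimulated arrays and above it on 7 others, with Lps at 4 h (27.8 and 33.5) and with Pic at 4 h (1 array, 23.5), 6 h (26.2 and 44.4) and 8 h (24.6 and 27.6). Kif20a, a cytokinesis motor, was above the floor on 1 array.

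**Figure D4:**
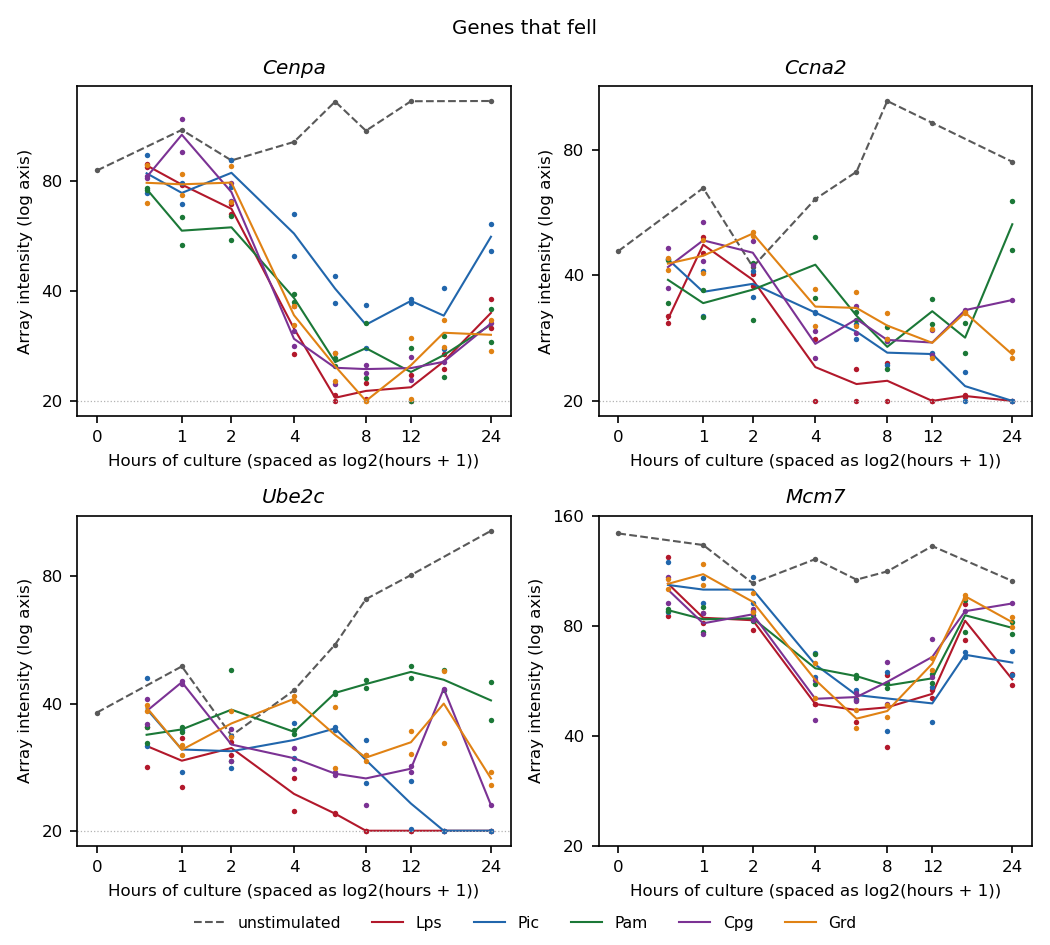
Intensity (vertical, log axis) of Cenpa, Ccna2, Ube2c and Mcm7 against hours (horizontal), with 1 point per array and a line through the mean of each stimulus. Cenpa is lowest from 6 h on with Lps, Pam, Cpg and Grd and stays higher with Pic; the floor of the data is 20.

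Top2a, the topoisomerase that untangles chromosomes, fell with Lps in both windows and with Pic late. Unstimulated arrays ran from 46.3 through 66.15 to 101.5, the Lps late arrays from 20.7 through 28.95 to 35.3 and the Pic late arrays from 22.3 through 27.1 to 39.2. Neither late window overlapped the unstimulated arrays. The differences were -1.03 ± 0.12 and -1.26 ± 0.12 with Lps and -1.25 with Pic late, against -0.39 with Pam, -0.40 with Cpg and -0.53 with Grd late. The Lps middle call was lost with arrays centred on their median (-0.83) and without the first Lps 4 or 8 h array or the unstimulated 8 or 12 h array (-0.995 to -0.95).

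Mki67, which encodes the Ki-67 protein that coats mitotic chromosomes and is widely used as a proliferation marker, rose early. Unstimulated arrays ran from 97.9 through 131.35 to 217.4. At 0.5 h the Lps arrays read 105.2 and 100.2, at 1 h 346 and 336.5, and at 2 h 1283 and 1171. At 2 h the arrays also read 890.8 and 989.1 with Pam, 1013.6 and 1051.7 with Cpg, 514.8 and 495.2 with Grd, and 254.4 and 295.5 with Pic. All 10 arrays at 2 h lay above every unstimulated array, and the arrays at 0.5 h did not. The early differences were 1.40 ± 0.10 with Lps, 1.61 with Pam and 1.72 with Cpg, and 0.50 with Lps when the 2 h arrays were left out. Middle differences were 1.67 with Lps, 1.54 with Pam, 1.14 with Grd and 1.11 with Pic, and 0.97 with Cpg, short of the size required. The Pic call was lost without the 8 h arrays (0.83) and the Grd call without the 4 h arrays (0.93). By 24 h the Lps arrays read 130.3 and 159.2, within the unstimulated range. From the middle to the late window Mki67 fell by 1.26 with Pam and with Grd, where 1.04% and 1.18% of all items fell. Mki67 is represented by 1 measured probe set. With Lps in the middle window it rose on the arrays on which Top2a, Ccna2, Ube2c and Cenpa fell.

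Whether the stimuli differed among themselves was tested by a limma F test over the 5 window means with a range of at least 1 log2 unit. The unstimulated mean was not compared there, but the spread among the unstimulated arrays was part of the error estimate. Lps, Pic, Pam and Grd each filled their own plate rows, and Cpg lay in columns 10 to 12. Stimulus and plate position therefore cannot be told apart in these comparisons. In the middle window 4 members differed: Tyms (range 1.92, adjusted p = 4.3e-20), Bub1b (1.82, 3.2e-20), Ccne1 (1.56, 4.2e-21) and Mad2l1 (1.07, 1.7e-20). Late, 5 differed: Tyms (2.44, 1.6e-24), Bub1b (1.48, 2.9e-15), Ccne1 (1.35, 2e-17), Ube2c (1.11, 3.6e-09) and Rrm1 (1.01, 3.6e-10). Of all items, 11.6% differed in the middle and 10.1% in the late window. Without the minimum range 20 and 25 members differed, against 76.5 and 70.6% of items.

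Pic stood at one end in most of these members. Pic minus Pam was 1.56 ± 0.10 for Ccne1 and 1.49 for Bub1b in the middle window, and -1.92 for Tyms, which widened to -2.44 late. For Bub1b, Pic minus Grd and Pic minus Cpg were both 1.82 in the middle window, and Lps minus Pic was -1.14. Mad2l1 was 1.07 higher with Lps than with Pic, and Rrm1 late was 1.01 lower with Pic than with Cpg (Pic minus Cpg -1.01). Ube2c followed another order: late Lps minus Pam was -1.11 and Pic minus Pam -1.05, so that Lps and Pic lay together at the low end. All 5 stimuli were compared with the same unstimulated arrays in the sections on single genes, so those differences share their reference.

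**Figure D5:**
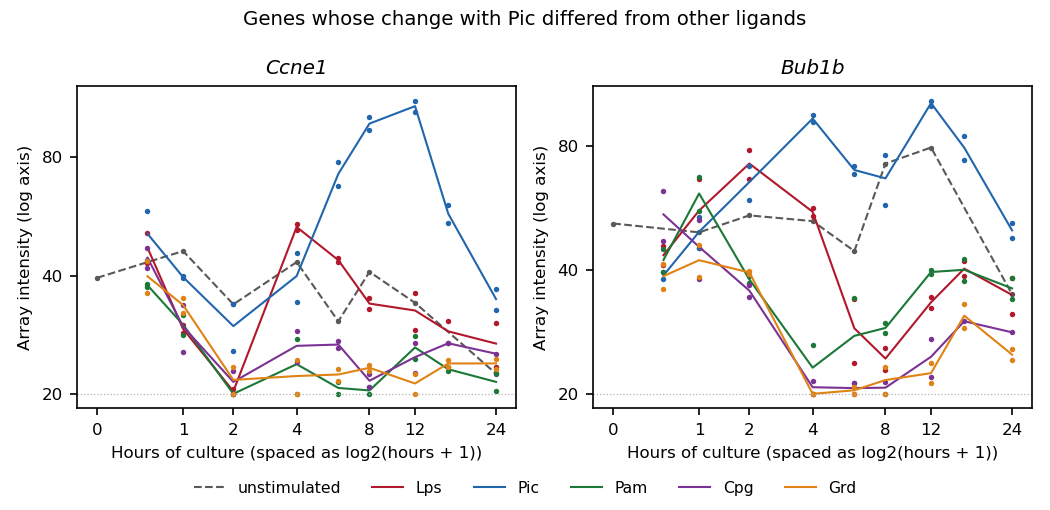
Intensity (vertical, log axis) of Ccne1 and Bub1b against hours of culture (horizontal), with 1 point per array and a line through the mean of each stimulus. Pic reaches its highest values at 12 h, 104.5 and 111.6 for Ccne1 and 102.9 and 100.1 for Bub1b, while Pam, Cpg and Grd lie near the floor of 20 in the middle window.

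Genes of the pathway outside the set moved in both directions as well. Of 106 further cell cycle genes listed, 73 were measured, and 36 could have been called lower. In the middle window 10 fell and 3 rose with Lps, 4 and 3 with Pic, 6 and 0 with Pam, 10 and 2 with Cpg, and 7 and 0 with Grd. Late, 4 and 0, 6 and 2, 4 and 0, 4 and 0, and 4 and 0 did so in the same order. These counts stand beside the shares of all items given above, such as 8.22% that fell and 7.05% that rose with Lps in the middle window, and nothing particular to the list is drawn from them. The median of the list was -0.31 with Lps in the middle window. Gmnn, geminin, which blocks Cdt1, fell by 2.66 with Lps and by 2.03 with Pam in the middle window, the same windows in which Cdt1 was at -0.61 and -1.06. Stmn1, stathmin, a microtubule regulator, fell by 2.19 with Lps and by 2.16 with Pic late. Tpx2, the activator of Aurka, rose by 2.08 with Lps middle and 1.94 with Pic late, and Timeless, a replication fork protein, rose by 2.30 with Pic middle but fell by 1.40 with Pam.

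Among 15 measured E2F, Rb and DREAM regulators, known to regulate many cell cycle genes, 3 fell and 3 rose with Lps in the middle window, where 8.22 and 7.05% of items did. Rbl2, the pocket protein p130, fell by 1.62 and E2f6, a repressive E2F, by 1.27, while E2f5 rose by 1.74 and Rbl1, the pocket protein p107, by 1.27. Rbl1 rose by 1.497 with Pic in the middle window and was at -0.97 with Pam. Of 25 measured G1 cyclins, inhibitors and arrest genes, 3 fell and 5 rose with Lps, and 0 and 6 with Pic, in the middle window, where 2.79% of items fell and 4.93% rose with Pic. Ccnd2, cyclin D2, rose in all 15 windows, by up to 3.79 with Lps in the middle window. Its unstimulated arrays were spread from 67.4 to 1041.7. Against those of the same times, without the stimulated 0.5 and 16 h arrays, its early differences were -0.08 to 0.48 and the 5 early calls were lost. With Lps its difference was then 3.97 in the middle and 4.96 in the late window. Mxd1, a Myc antagonist, rose by 2.06 with Pic middle, Gadd45b, a stress-induced gene, rose by 1.78 with Lps middle, and Gadd45g, of the same family, fell by 1.90 with Pam middle.

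The labelled cell type and other cells were checked by marker lists. Of 11 dendritic cell and antigen presentation genes, 10 were above the floor in all unstimulated arrays, with a summed intensity of 27159 to 29677, and Cd209a was at the floor on every array. The summed intensity of this list was lower in many late arrays. It was 23312 to 27917 with Lps, 26030 to 27085 with Pic and 22114 to 28580 with Pam late. With Cpg late it was 22887 to 26869 and with Grd late 19709 to 26646. Haematopoietic progenitor markers, which would mark dividing precursors, had 4 of 6 listed genes measured, a summed intensity of 86.1 to 92.5 in unstimulated cells and 83.3 to 105.5 over all stimulated windows, and Myb at the floor throughout. Since 4 genes at the floor sum to 80, these markers were close to it in every group. Markers of neutrophils and their precursors moved in the late window too: of 10 measured, 4 fell with Lps, 3 with Pam, 4 with Cpg and 3 with Grd, and 0 with Pic. Ltf, lactoferrin, fell by 2.82 with Lps and by 3.33 with Pam late and was at -0.78 with Pic, while Lcn2, lipocalin 2, rose by up to 4.21 (Pam late). The summed level of that list was 5466 to 8646 unstimulated, 5072 to 7620 with Lps late and 4182 to 6591 with Pic late. With the other stimuli it was 7987 to 9858 (Pam late), 6000 to 8270 (Cpg late) and 7779 to 9209 (Grd late). Of 7 listed B cell markers, Cd79a, Ms4a1, Ebf1 and Pax5 were at the floor on every array, whereas Blnk, an adaptor of the B cell receptor that other cells also express, had an unstimulated mean of 931.7 and reached 4153.3. Blnk rose in the middle and late windows with Lps, Pam, Cpg and Grd, by 1.53 (Grd middle) to 1.96 (Cpg late), and was at 0.61 and 0.70 with Pic. Of 9 macrophage and monocyte genes 8 were measured, and in the middle window 3 fell and 1 rose with Lps, Cpg and Grd, 4 and 1 with Pam, and 2 and 1 with Pic. Late, 3 fell and 2 rose with Lps, Cpg and Grd, 4 and 2 with Pam, and 2 and 0 with Pic. Ccr2, a chemokine receptor of monocytes, fell by 5.48 with Lps late and Mrc1, the mannose receptor, fell by 5.45, while Adgre1, the F4/80 antigen, rose by 2.48 with Grd late. The summed level of the macrophage list was 18849 to 25282 unstimulated, 20629 to 25928 with Lps late and 17530 to 20020 with Pic late. It was 22622 to 29002 with Pam late, 21583.5 to 26382.5 with Cpg late and 23683 to 29262 with Grd late. Of 5 stromal genes only Dcn, decorin, was measured, at 20.5 to 29 unstimulated, and it rose late by 1.68 with Lps, 1.45 with Pam, 1.75 with Cpg and 1.88 with Grd and was at 0.25 with Pic. The counts of these lists stand beside the shares of all items given above for each window, and nothing particular to a list is drawn from them. The part of any of these lists in the members' values was not tested.

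The median intensity per array lay between 48.75 and 59.5, and 33.1 to 34.6% of probe sets were at the floor. The SD between replicate arrays of a group, as a median over genes, was 0.079 log2 units for the members and 0.070 for all items. How precise these values can be is limited by how many arrays there were.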

How the data were processed

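RNA of mouse bone marrow dendritic cells was hybridised by the authors to one-colour Affymetrix mouse HT arrays after extraction with miRNeasy, per the labels' protocols. The deposited table holds 1 intensity per probe set and array (18858 probe sets, 96 arrays), summarised with RMA per the submitters' processing notes (version not named there). The deposited intensity values are on a linear scale from 20 to 16401.5, and how the floor of 20 was set is not stated in the sources available for this work. Probe sets were named through GEO's platform annotation (15044 with 1 symbol, 257 with several, 3557 with none), and 4409 probe sets that never rose above 20 were dropped.

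Log2(intensity + 1) values were fitted in limma 3.58.1 (R 4.3.3) with 1 mean for each of the 45 groups of stimulus and time and 1 for the 8 unstimulated arrays, which left 50 residual degrees of freedom. Windows were contrasts of these means, tested with eBayes and adjusted by Benjamini-Hochberg over 10543 items. A call needed an adjusted p under 0.05 and a difference of 1. The code was tested on simulated data. Tables and plots were made with Python 3.11.15, pandas 2.3.3 and matplotlib 3.10.9.

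The members, the other gene lists and the tests were chosen with earlier results of these data known. Members described in full are, per role, those with the highest unstimulated mean, the largest fall and the largest rise or smallest fall, together with members whose probe sets differ. From other lists at most 4 genes with the largest called differences are named. Replicate numbers do not mark shared cultures in the labels, so they were not used as pairs. The correlation of replicate differences between groups had a median of 0.0076 over 903 pairs of groups. It ran from -0.33 to 0.35, and whether some groups shared a batch was not tested. Alternatives covered the added constant, centring, quantile normalization, array weights, the reference arrays, a filter on dim probe sets, the mean of a gene's probe sets, the plate column and each left-out array.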

Additional observations from a re-analysis of the deposited data

Results flagged for a closer look

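In the 8 unstimulated arrays, 7 of 37 members with any spread had 1 array far from the other 7. Chance marks about 1 group in 20, but that share does not hold for values cut at the floor. A member with 1 array above 20 and the others at 20, such as Ccne2 or Kif20a, is always marked. The 8 arrays are from different times, so a distant first or last array need not be an error. Cdt1 read 416.9 at 6 h, with the others between 302.5 and 351.5. Mcm2 read 107.4 at 0 h, with the others between 51.1 and 77.7. Fen1 read 110.2 at 24 h, with the others between 170.1 and 215.4. Mki67 read 217.4 at 12 h, with the others between 97.9 and 154. Close to the floor, Ccne2 read 21.8 at 2 h and Kif20a 22.2 at 8 h with all others at 20, and Bub1 read 26 at 8 h with the others between 20 and 22.3.

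The response to stimulation differed between stimuli for 4 members in the middle window (Tyms, Bub1b, Ccne1 and Mad2l1) and for 5 in the late window (Tyms, Bub1b, Ccne1, Ube2c and Rrm1), by the limma F test over the 5 stimuli. By the same rule 11.6% of all items differed in the middle and 10.1% in the late window, so nothing particular to the 39 members is drawn from these counts.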

How the results depend on the processing

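The number of members called lower depends most on the size required. With an added constant of 16 the counts became 3 (from 7) for Lps middle, 3 (from 5) for Lps late, 1 (from 3) for Pic middle, 3 (from 10) for Pic late, 2 (from 5) for Pam middle, 1 (from 5) for Cpg middle, 1 (from 2) for Cpg late, 3 (from 6) for Grd middle and 1 (from 3) for Grd late, and 2 (from 5) members differed between stimuli late. Top2a with Lps late was -0.94 under that setting. Centring on the median gave 4 for Lps middle, 2 for Pam middle, 1 for Cpg late and 3 for Grd middle; quantile normalization gave 4, 3 and 1 for the first 3 of these, and array weights gave 8 for Pam middle and 1 for Cpg late. The mean of all probe sets gave 1 for Cpg late. With unstimulated arrays of the same times the counts were 11 and 8 for Lps (middle, late), 6 for Pic middle, 8 and 4 for Pam, 10 and 6 for Cpg and 7 for Grd late. Those same-time references had 1 array per time, whose spread the fit could not measure. With a linear trend as reference, late counts were 8 for Lps, 4 for Pam, 5 for Cpg and 7 for Grd. With no minimum difference they were 22, 30 and 30 for Lps (early, middle, late), 23, 26 and 29 for Pic, 24, 30 and 28 for Pam, 23, 31 and 26 for Cpg and 19, 31 and 29 for Grd, and 20 and 25 members differed between stimuli (middle, late). Early counts stayed at 0 under the other alternatives.

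Leaving out 1 array at a time gave 6 to 10 for Lps middle, 5 to 6 for Lps late, 3 to 3 for Pic middle, 7 to 10 for Pic late, 4 to 7 for Pam middle, 1 to 1 for Pam late, 5 to 7 for Cpg middle, 1 to 4 for Cpg late, 5 to 6 for Grd middle and 2 to 4 for Grd late, with 0 to 0 in the early windows. Leaving out a whole time gave 2 for Pam late (without 24 h) and 1 or 4 for Cpg late (without 12 or 16 h). Members that differed between stimuli numbered 4 to 4 in the middle and 4 to 5 in the late window, and those with an unstimulated trend 0 to 6, or 9 with the slope on hours. With the replicate number as a block, which pairs no cultures in the labels, Cenpa with Lps middle was -2.18 and the counts were 6 for Lps late and 6 for Pam middle. No member changed direction under any setting where it was called. The floor of 20 limits what dim members can show, and 16 of 39 could not be called lower.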
